A study of Homo sapiens with 24 samples.

Results

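The transcripts of 10 RNA-binding proteins with a known role in the splicing of CD44 or in epithelial splicing were followed in 24 RNA-seq libraries: ESRP1, ESRP2, RBFOX2, KHDRBS1, TRA2B, SRSF1, SRSF3, HNRNPM, HNRNPL and QKI. They were chosen by gene symbol from that knowledge, and all 10 were found among the 35993 symbols of the count table. The libraries came from J82 and RT-112, established human bladder cancer cell lines, each as parental cells and as derived lines labelled CD44 Low, CD44 High (low and high CD44 receptor) and CD44v6 (high CD44v6 receptor). Each of these 8 groups had 3 libraries, given in the study's design as biological replicates. Nothing says whether these came from separate cultures, so p-values measure the spread between these libraries. The derived lines are called newly established in the study's design, but whether by sorting, cloning or an introduced gene is not given in the sources used here, and neither is the culture medium or any treatment. Each derived line is a single line, so a difference from parental cells can belong to that line as well as to its CD44 level. Levels are given as CPM, a gene's count relative to its library's total over the genes that passed an expression filter. TMM factors scale the libraries to each other, and ± is the SD over 3 libraries.

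CD44 is a surface receptor for hyaluronan. Its gene has a block of variant exons that are left out of the standard form and kept in varying combinations in variant forms, and CD44v6 denotes forms that carry variant exon v6. Which exons are kept depends on proteins that bind the exons or the introns beside them: ESRP1 and ESRP2 are epithelial proteins that favour keeping variant exons, TRA2B and the SR proteins SRSF1 and SRSF3 bind exons and mostly favour them, and KHDRBS1 (Sam68) favours exon v5 when it is phosphorylated by the ERK pathway. HNRNPM opposes ESRP1 at exon v8, HNRNPL is mostly a repressor that binds CA-rich RNA, and RBFOX2 and QKI act on many exons that change when epithelial cells take on mesenchymal features. A count per gene does not say which exons were kept, so the values below are transcript levels of the regulators and not their activity or any exon's use.

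Variant exons v5 and v8, for which KHDRBS1, TRA2B, ESRP1 and HNRNPM are known, and v6, which names a group, are shown from transcript CD44-208 of GENCODE 29 (GRCh38, + strand). They lie in the block of variant exons, exons 6 to 14 of the 18 in that transcript. Exon v5 is exon 9 at chr11:35201671-35201787 (117 bases), v6 is exon 10 at chr11:35204512-35204640 (129 bases), and v8 is exon 12 at chr11:35208105-35208206 (102 bases). Capitals mark AGAA, the core of the sequence that TRA2B binds.
v5: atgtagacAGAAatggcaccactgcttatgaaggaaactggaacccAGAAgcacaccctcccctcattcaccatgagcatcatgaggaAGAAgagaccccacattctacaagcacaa
v6: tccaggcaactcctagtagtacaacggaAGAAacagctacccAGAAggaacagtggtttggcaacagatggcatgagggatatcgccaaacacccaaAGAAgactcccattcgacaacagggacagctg
v8: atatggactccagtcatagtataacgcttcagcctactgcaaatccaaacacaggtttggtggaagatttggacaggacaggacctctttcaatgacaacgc
AGAA occurred 3 times in v5, 3 times in v6 and 0 times in v8. Among internal exons of coding transcripts with the same length, 58.8% of 1615, 59.5% of 1495 and 57.6% of 1641 held it at least once, and 11.1% and 12.4% held it at least as often as v5 and v6. The other motifs searched, on the transcribed strand only, were GCATG (RBFOX2), ACTAA (QKI), TAAA (KHDRBS1), CACA (HNRNPL) and GGTGG (ESRP1). GCATG occurred 1 time in v6, where 12.2% of exons of that length held it, and in neither of the others. CACA occurred 3 times in v5 and 1 time in v8, with 40.2% and 36.4% of exons holding it, and 1.61% of exons of the length of v5 held it at least 3 times. GGTGG occurred 1 time in v8 (14.1% of exons), while ACTAA and TAAA occurred in none of the 3 exons, against 4.75% to 5.33% and 25.8% to 28.4% of exons of those lengths. No match of one motif overlapped a match of another. A match shows that the letters are present in the exon and not that the protein binds there, and introns were not searched. These exons and motifs were chosen after the levels of the regulators had been seen.

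Library totals ran from 16752825 to 24419670 counts. Replicates differed by more than sampling noise in all 24 pairs (chi-square over its degrees of freedom 6.03 to 58.7). Of 10 epithelial markers fixed for the check (among them CDH1 and EPCAM), the sum was 8.77 to 16.9 CPM in J82 and 1046 to 1344 CPM in RT-112. The urothelial list summed to 6466 to 10640 CPM in J82 and 9726 to 14276 CPM in RT-112. UPK2, UPK3A and KRT5 were at a count of 0 in every J82 library, and UPK3A in every RT-112 library. CD44 itself, as all its transcripts together, was at 445 ± 46.5 CPM in parental J82, 279 ± 27.9 in CD44 Low, 727 ± 32.04 in CD44 High and 799.7 ± 242 in CD44v6. In RT-112 the CD44 levels were 317 ± 27.2, 141 ± 18.2, 420.2 ± 70.02 and 448 ± 69.02 CPM. Against parental cells, CD44 passed an edgeR adjusted p under 0.05 in every derived J82 line and in RT-112 CD44 Low. It did not pass in RT-112 CD44 High or CD44v6 (edgeR adjusted p = 0.272 and 0.163), although their libraries lay above the parental ones.

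The clearest difference among the regulators was between the lines and not between the CD44 groups. ESRP1 was at a count of 0 in all 12 J82 libraries and was an abundant transcript in all 12 RT-112 libraries, and ESRP2 was 18.6 to 25.9 times lower in J82. RBFOX2, SRSF3 and HNRNPL were also lower in J82 in each of the 4 matched groups, by much smaller factors. Within a line, 2 of the regulators passed the test in any comparison of CD44 groups, and both did so in J82: between its CD44 High and CD44 Low cells, QKI was lower and TRA2B higher in the former. That is 22.2% of the 9 tested there, against 15.7% of all genes. The call of QKI held in all 6 fits that left out 1 library, and that of TRA2B was lost in 4 of them.

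**Figure D1:**
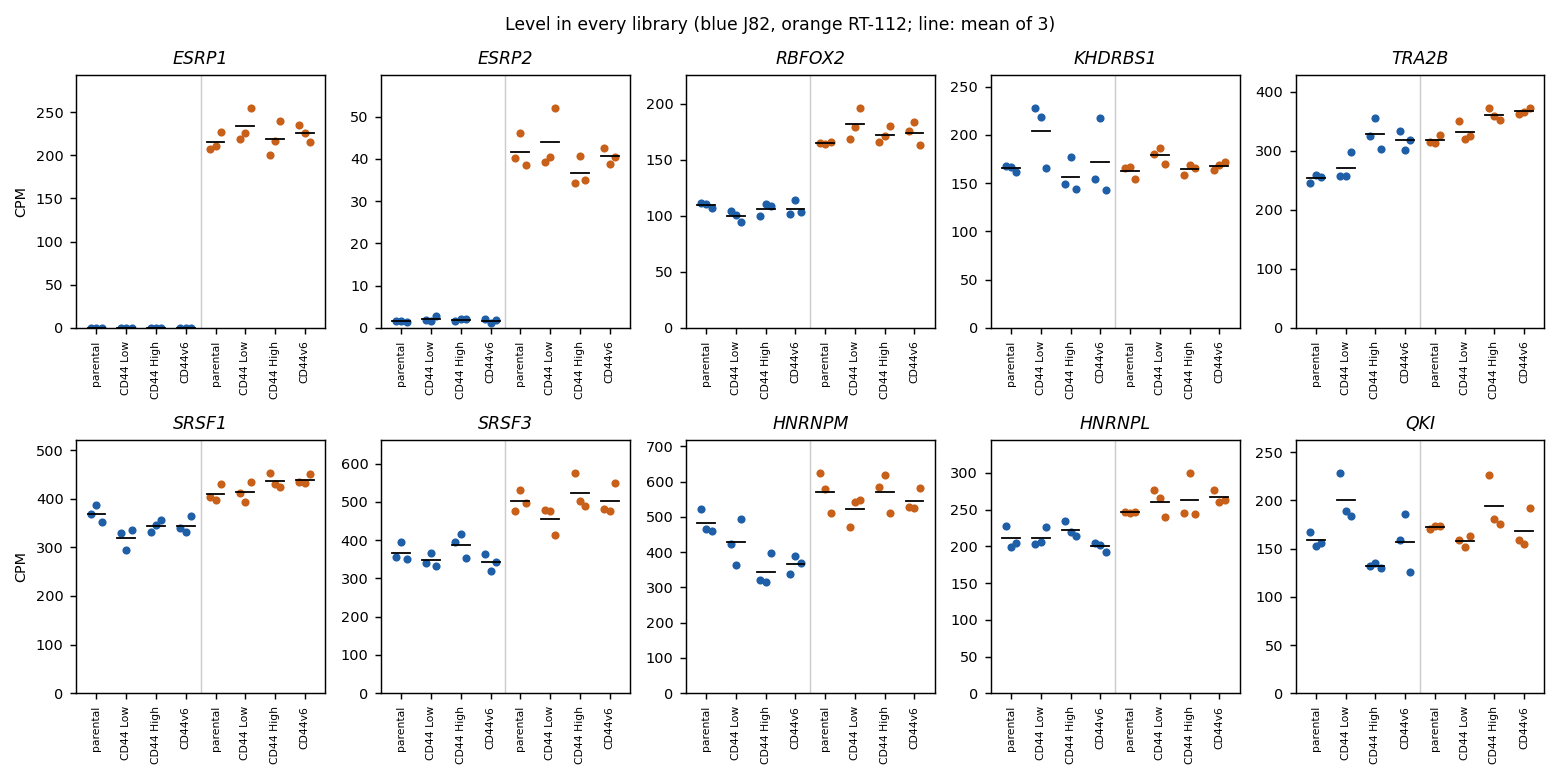
Level of each of the 10 regulators in every library, in CPM, with 1 panel per gene, J82 in blue and RT-112 in orange, 1 point per library and a line at the mean of 3. ESRP1 lies at 0 in all J82 libraries and at 199.9 to 255 CPM in RT-112, while the other panels show smaller differences.

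ESRP1 and ESRP2 are paralogs that are expressed in epithelial cells and were named for their effect on splicing there. In parental RT-112 cells ESRP1 measured 208, 211 and 227 CPM, in CD44 Low 219, 226 and 255, in CD44 High 199.9, 216 and 239.5 and in CD44v6 235, 226 and 216 CPM. The 4 RT-112 groups overlapped one another. No ESRP1 count was seen in any J82 library. With the limit that a count of 0 allows set at 3 counts per library, and the highest such limit of each J82 group, ESRP1 was at least 1309-fold lower in J82 than in RT-112 in parental cells, 1359-fold in CD44 Low, 1395-fold in CD44 High and 1264-fold in CD44v6. These limits cover counting error only. In a bulk library, fewer cells with a transcript and less of it per cell cannot be told apart.

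ESRP2 was detected in J82, at 21 to 48 counts per library. It measured 1.74, 1.59 and 1.47 CPM in parental J82, 1.89, 1.57 and 2.75 in CD44 Low, 1.72, 2.06 and 2.14 in CD44 High and 2.09, 1.25 and 1.92 in CD44v6. In RT-112 ESRP2 was at 40.2, 46.1 and 38.6 CPM in parental cells, 39.2, 40.4 and 52.2 in CD44 Low, 34.2, 40.7 and 35.1 in CD44 High and 42.6, 38.9 and 40.5 in CD44v6. The highest J82 library, at 2.75 CPM, lay far below the lowest RT-112 library, at 34.2 CPM. The log2 fold change of J82 against RT-112 was -4.69 (SE 0.19) in parental cells, -4.41 (SE 0.18) in CD44 Low, -4.22 (SE 0.18) in CD44 High and -4.52 (SE 0.19) in CD44v6. The edgeR adjusted p was at most 1.31e-14 in these 4 comparisons. ESRP2 overlaps NFATC3 on the opposite strand in GENCODE 29, and whether the counting used strand is not stated, so reads of ESRP2 and NFATC3 cannot be told apart where they overlap. NFATC3, looked up after this overlap was seen, was at 53.6 ± 5.62 CPM in parental J82 and 43.4 ± 1.70 CPM in parental RT-112. How many of the 21 to 48 counts of ESRP2 in J82 libraries came from NFATC3 was not tested.

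Neither ESRP gene was called between CD44 groups within a line. Between CD44 High and CD44 Low cells of RT-112 the log2 fold change of ESRP1 was -0.06 (95% interval -0.25 to 0.13) and that of ESRP2 was -0.23 (-0.49 to 0.03). In CD44v6 against parental RT-112 cells the values were 0.03 (-0.16 to 0.22) for ESRP1 and -0.08 (-0.34 to 0.18) for ESRP2. In J82, where ESRP1 could not be tested, the interval for ESRP2 in CD44 High against CD44 Low ran from -0.72 to 0.60 around -0.06, so a change within those bounds was not detectable at its depth.

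The transcription factors that set epithelial or mesenchymal state were read from a list of 12, since several are known to act on the ESRP genes. When the parental cells of the lines were compared, 3 of the 12 were higher and 8 lower in J82, against 31% and 31% of all 17438 genes tested. The higher genes were ZEB1, ZEB2 and TWIST1, which repress epithelial genes. ZEB1 was at 81.6 ± 3.33 CPM in J82 and 1.02 ± 0.301 in RT-112, and ZEB2 at 164 ± 5.40 and 0.0929 ± 0.161 CPM. TWIST1 was at 6.60 ± 0.176 CPM in J82 and at a count of 0 in each parental RT-112 library. Among the lower genes, GRHL2, ELF3, EHF and OVOL1, which maintain epithelial genes, and TWIST2 were at a count of 0 in all 3 parental J82 libraries. In parental RT-112 GRHL2 reached 263 ± 10.5 CPM, ELF3 233 ± 18.1, EHF 291 ± 18.8, OVOL1 24.97 ± 2.79 and TWIST2 1.18 ± 0.516 CPM. GRHL1, OVOL2 and SNAI2 were also lower in J82, with log2 fold changes of -3.81, -5.57 and -2.35. SNAI2 and TWIST2, like ZEB1, repress epithelial genes, and both were lower in J82. SNAI1 had at most 6 counts in a parental library and did not pass (edgeR adjusted p = 0.294). With 1 line on each side, these differences are between these 2 lines, and whether the transcription factors bear on ESRP1 or ESRP2 was not tested.

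Among all the regulators, 6 of 10 were called (edgeR adjusted p under 0.05) in J82 against RT-112 parental cells, 9 in CD44 Low, 8 in CD44 High and 8 in CD44v6. Of all genes tested, 62%, 66.2%, 62.9% and 65.6% were called in the same comparisons. The counts of regulators were not tested against these shares. All calls were lower in J82 except that of QKI in CD44 Low, against 31%, 32.5%, 32.2% and 33.2% of all genes called lower. The median log2 fold change of the 10 was -0.29, -0.33, -0.49 and -0.49 in the 4 comparisons, and that of all genes was -0.0042, 0.04, -0.02 and -0.01. In each of the 4 comparisons the libraries of the lines did not overlap for 8 of the 10, as for 73.9%, 68.1%, 65.2% and 66.9% of all genes.

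**Figure D2:**
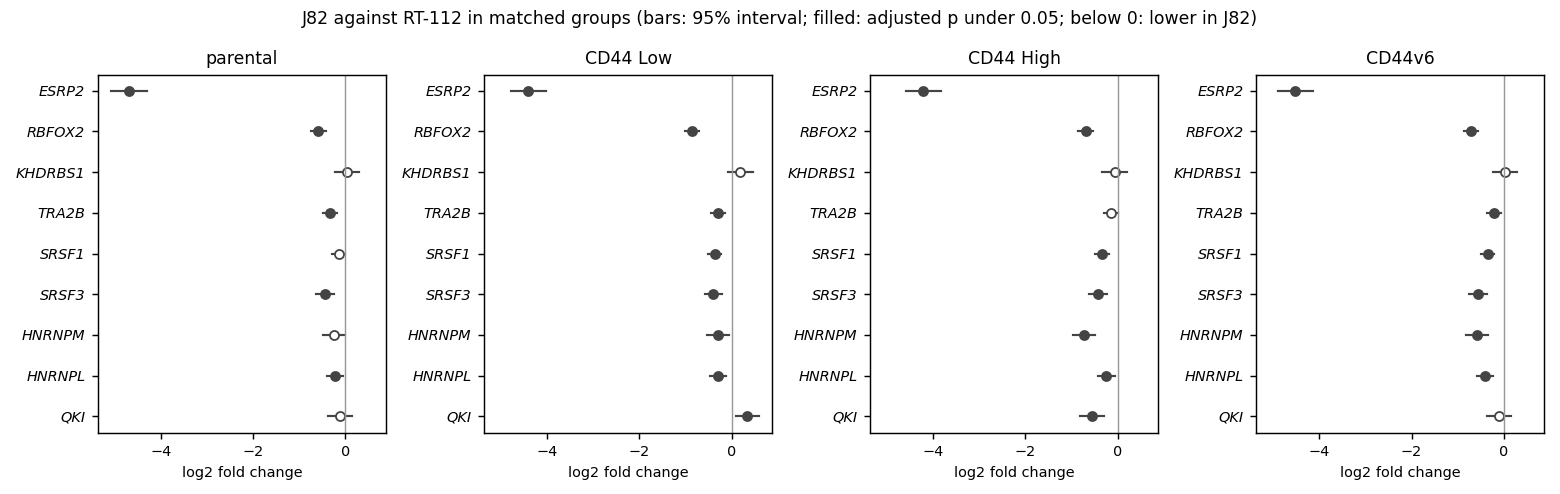
Log2 fold change of J82 against RT-112 in each of the 4 matched groups, with 95% intervals and filled points where the adjusted p is under 0.05. ESRP1 is left out because its J82 counts are 0. ESRP2 lies between -4.22 and -4.69, and RBFOX2, SRSF3 and HNRNPL lie below 0 with filled points in all 4 panels.

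RBFOX2, which binds GCATG and takes part in the splicing changes of the epithelial to mesenchymal transition, was lower in J82 than in RT-112 in every matched group. It measured 112, 110.3 and 107 CPM in parental J82 cells and 165, 164 and 166 in those of RT-112. Over all groups its highest J82 library, at 114 CPM, lay below its lowest RT-112 library, at 163 CPM. The log2 fold change was -0.59 (SE 0.08) in parental cells, -0.86 in CD44 Low, -0.69 in CD44 High and -0.71 in CD44v6, with an edgeR adjusted p of at most 5.89e-07. Within each line RBFOX2 was steady: the highest and lowest group means differed by 0.13 in J82 and 0.13 in RT-112 on the log2 scale. The medians for genes with an average of at least 3 log2 CPM were 0.33 and 0.29. Its paralogs RBFOX1 and RBFOX3 had too few counts to be tested in either line.

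The SR proteins and TRA2B, which mostly favour keeping an exon, were all lower in J82 in at least 3 of the 4 groups. SRSF3 was at 367 ± 25.1 CPM in parental J82 cells and 501 ± 27.6 in those of RT-112, with log2 fold changes of -0.45, -0.39, -0.43 and -0.55 in parental, CD44 Low, CD44 High and CD44v6 cells. Its edgeR adjusted p was at most 0.000654. SRSF1 measured 369 ± 17.3 CPM in parental J82 cells and 409.5 ± 17.6 in those of RT-112, where the difference did not pass (-0.15, edgeR adjusted p = 0.0689) although the libraries did not overlap. In the derived lines SRSF1 was lower in J82, with log2 fold changes of -0.37, -0.34 and -0.35, each called. TRA2B, at 254 ± 6.94 against 319 ± 7.62 CPM in parental cells, was lower in J82 there (log2 fold change -0.33), in CD44 Low (-0.29) and in CD44v6 (-0.21). In CD44 High the TRA2B libraries of the lines overlapped (-0.14, edgeR adjusted p = 0.111). The call in CD44v6 was lost with median-of-ratios scaling, without a filter, and without J82 CD44v6 replicate 2 or RT-112 CD44v6 replicate 1 or 2 (adjusted p up to 0.333). Without J82 CD44v6 replicate 2 the log2 fold change was -0.10.

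KHDRBS1, the signal-dependent activator of exon v5, was the only regulator called in none of the 4 comparisons of the lines. Its levels were 165 ± 3.47 CPM in parental J82 cells and 162 ± 6.99 in those of RT-112. Its intervals for J82 against RT-112 ran from -0.24 to 0.29 in parental cells and from -0.07 to 0.45 in CD44 Low, where the J82 libraries were at 228, 219 and 166 CPM.

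HNRNPL and HNRNPM, hnRNP proteins that mostly repress exons, were called lower in J82 in 4 and 3 of the 4 groups. HNRNPL was at 211 ± 15.1 CPM in parental J82 cells and 246 ± 1.34 in those of RT-112. Its log2 fold changes were -0.23, -0.30, -0.24 and -0.42 in parental, CD44 Low, CD44 High and CD44v6 cells, with an edgeR adjusted p of 0.0244, 0.00372, 0.0161 and 0.00019. The call in parental cells was lost without J82 parental replicate 3 or RT-112 parental replicate 3 (adjusted p up to 0.118). That in CD44 High was lost without J82 CD44 High replicate 2 or 3, without RT-112 CD44 High replicate 2 and without a filter (up to 0.144), with a log2 fold change of -0.14 without the RT-112 library. HNRNPM, the opponent of ESRP1 at exon v8, was at 483 ± 35.1 CPM in parental J82 cells and 571 ± 57.7 in those of RT-112, a difference that did not pass (-0.24, edgeR adjusted p = 0.0739). It was lower in J82 in CD44 High (log2 fold change -0.73) and in CD44v6 (-0.58; edgeR adjusted p = 1.08e-05 and 0.000164). In CD44 Low the difference was smaller (-0.29, edgeR adjusted p = 0.0341) and was lost without J82 CD44 Low replicate 1 or 2, without RT-112 CD44 Low replicate 2 or 3, with upper-quartile scaling and with either other filter (up to 0.193), with -0.18 without J82 CD44 Low replicate 2.

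Compared between genes per kilobase of exon (union of the exons in GENCODE 29), SRSF1 and HNRNPM were the most abundant of the regulators in both lines. In parental J82 the order was SRSF1 at 111 ± 5.19 CPM per kilobase, HNRNPM 86.03 ± 6.25, SRSF3 51.6 ± 3.53, KHDRBS1 46.1 ± 0.966, HNRNPL 30.9 ± 2.22, TRA2B 21.6 ± 0.590, RBFOX2 10.95 ± 0.252, QKI 9.13 ± 0.454 and ESRP2 0.287 ± 0.0242, with ESRP1 at 0. In parental RT-112 the other genes kept that order, and ESRP1, at 44.1 ± 2.07 CPM per kilobase, stood beside KHDRBS1 at 45.2 ± 1.95, from which it did not differ beyond their spread. The libraries of all other neighbours in these orders did not overlap. ESRP2 was the lowest there at 7.48 ± 0.711, below QKI at 9.92 ± 0.0904. The lengths count all annotated exons, so a gene with long, rarely used exons is set low on this scale.

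Within the lines few of the regulators moved with the CD44 groups. In J82, where 9 of 10 could be tested, 1 was called in CD44 High against parental cells (TRA2B; 11.1% of the 9, against 2.94% of all 15951 genes) and 2 when CD44 High was set against CD44 Low (22.2% against 15.7%). edgeR called 0 of 9 in J82 CD44 Low against parental cells (5.34% of all genes), CD44v6 against parental cells (2.6%), CD44v6 against CD44 Low (9.58%) and, last, CD44v6 against CD44 High (0%). At an unadjusted p under 0.05 there were 2, 2, 2 and 0 regulators in those 4 comparisons, and DESeq2 called 0, 2, 0 and 0. In RT-112 edgeR called 0 of 10 in each of the 6 comparisons. The background there was 3.2% of 15645 genes for CD44 Low, 0.511% for CD44 High and 0.614% for CD44v6 set against parental cells, 16% in CD44 High and 16% in CD44v6 against CD44 Low, and 0% in CD44v6 against CD44 High. At an unadjusted p under 0.05 the RT-112 counts were 0, 1, 1, 3, 0 and 1 in that order, and DESeq2 called 1 regulator, QKI, between CD44 High and CD44 Low and 0 in the other 5. The libraries did not overlap for 3 of 9 regulators in J82 CD44 High against parental cells (29.6% of all genes), 2 in CD44v6 against parental cells (27.3%) and 2 between CD44 High and CD44 Low (34.9%). The same held for 2 of 10 (16.9% of all genes), 3 (26.9%) and 4 (30.4%) in RT-112.

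The number of all genes called changed when 1 library was left out. The group concerned then has 2 libraries, so lower precision and the part of a particular library cannot be told apart. For J82 CD44 High set against parental cells edgeR called 469 genes, and 122 without J82 parental replicate 1 to 349 without CD44 High replicate 3. For CD44v6 the 415 genes became 32 without J82 parental replicate 1 and 1120 without CD44v6 replicate 3, and for CD44 Low the 852 became 312 without parental replicate 2 and 965 without CD44 Low replicate 3. Between CD44 High and CD44 Low of J82 the 2508 became 1578 without CD44 High replicate 2. In RT-112 the counts against parental cells were 80 for CD44 High (18 without its replicate 1, 196 without its replicate 3), 96 for CD44v6 (25 without parental replicate 2) and 500 for CD44 Low (142 without parental replicate 2, 798 without CD44 Low replicate 3). Set against CD44 Low of RT-112, CD44 High had 2507 genes (1230 without its replicate 1, 3091 without its replicate 3) and CD44v6 had 2504 (1004 without its replicate 3).

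**Figure D3:**
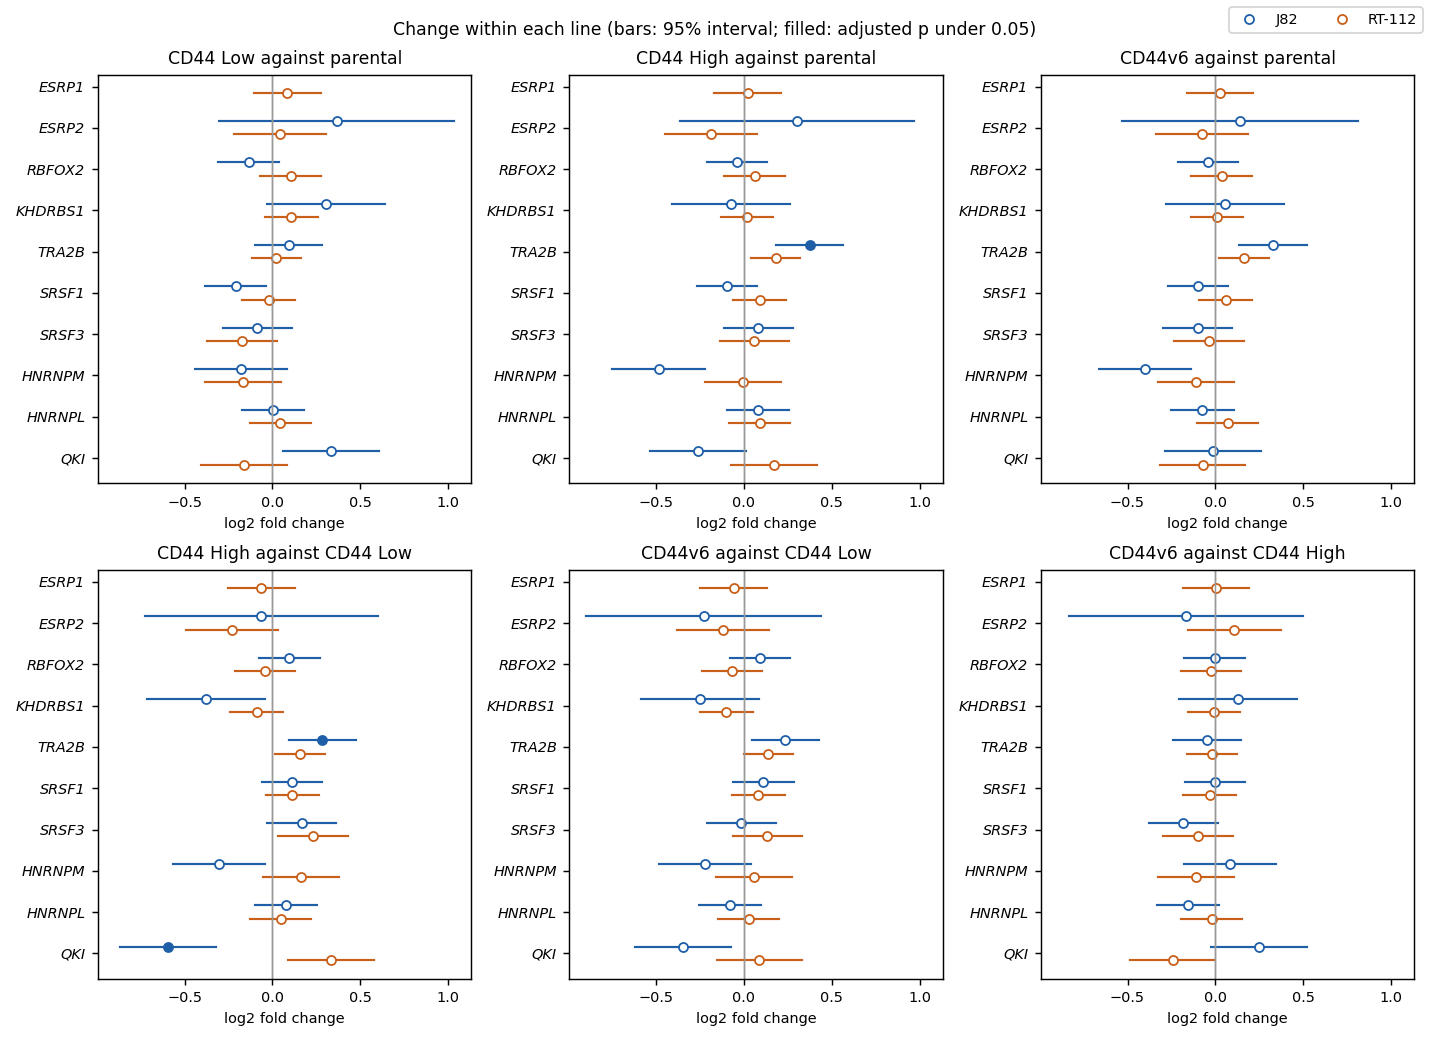
Log2 fold change of each regulator in the 6 comparisons within a line, J82 in blue and RT-112 in orange, with 95% intervals and filled points where the adjusted p is under 0.05. The filled points are all from J82 CD44 High: TRA2B against parental cells and against CD44 Low, and QKI against CD44 Low.

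QKI, an RNA-binding protein of the STAR family to which KHDRBS1 also belongs, had the widest range within each line. In J82 it measured 167, 152 and 156 CPM in parental cells, 228, 189 and 183 in CD44 Low, 132, 135 and 129.6 in CD44 High and 159, 186 and 126 in CD44v6. All CD44 Low libraries were above and all CD44 High libraries below those of parental cells, while the CD44v6 libraries spread over both sides. QKI was 1.51-fold lower in CD44 High when set against CD44 Low (log2 fold change -0.60, SE 0.13, edgeR adjusted p = 0.00673). The call held in all 6 fits that left out 1 library (adjusted p up to 0.0368) and in all 8 other settings. Against parental cells neither CD44 Low (0.33, edgeR adjusted p = 0.146) nor CD44 High (-0.26, 0.34) passed. In CD44v6 against CD44 Low the value was -0.35 (edgeR adjusted p = 0.111).

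In RT-112 QKI lay the other way. It was at 170.4, 173 and 173 CPM in parental cells, 159, 152 and 163 in CD44 Low, 226, 180.3 and 175 in CD44 High and 159, 155 and 192 in CD44v6. All CD44 High libraries were above the CD44 Low ones, and replicate 1 of CD44 High was the highest. The difference did not pass in RT-112 alone (log2 fold change 0.33, SE 0.11, edgeR adjusted p = 0.0626), but it did with DESeq2, and without RT-112 CD44 High replicate 2 or 3. Without replicate 1 of CD44 High the log2 fold change was 0.19 (edgeR adjusted p = 0.274). The difference between the lines did: the change in J82 minus that in RT-112 was -0.90 (SE 0.17, edgeR adjusted p = 0.00173). It held in all 12 fits that left out 1 library (adjusted p up to 0.00809) and in all 6 other settings. Compared between the lines, QKI was higher in J82 than in RT-112 in CD44 Low (0.34, edgeR adjusted p = 0.0169), lower in CD44 High (-0.55, 0.000439), and did not differ detectably in parental cells (-0.12, interval -0.37 to 0.13) or CD44v6 (-0.10, interval -0.36 to 0.15). The call in CD44 Low was lost without J82 CD44 Low replicate 1 or RT-112 CD44 Low replicate 2 (adjusted p up to 0.104).

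Some markers of cell state and of other cell types were called between the same groups as QKI. Of all genes tested, 8.83% were higher and 6.9% lower in J82 CD44 High against CD44 Low. In RT-112 the shares were 9.01% and 7.02%, and no marker list was tested against these shares. Of the 7 fibroblast markers 5 could be tested in J82, and 4 of them were lower in CD44 High cells (COL1A2, COL3A1, LUM and PDGFRB) when these were set against CD44 Low cells. The sum of the list was 1068 to 1390 CPM in J82 CD44 Low, 594 to 669 in parental cells, 431 to 482 in CD44 High and 429 to 553 in CD44v6, with DCN at a count of 0 in all of them. Between the same J82 groups 2 of 5 tested urothelial markers (KRT7 and PPARG), 1 of 7 mesenchymal markers (VIM) and 1 of 2 immune markers (CD68) were higher in CD44 High, and 1 of 4 epithelial markers (CDH1) and 1 of 2 endothelial markers (KDR) were lower. The median log2 fold change of the 2 tested immune markers was -0.60, so the one not called was lower in CD44 High. The T-cell marker CD3E was at 0 in both J82 groups. In RT-112 3 of 6 tested mesenchymal markers (AXL, FBN1 and FN1) were higher in CD44 High, and that list summed to 582 to 896 CPM there and to 287 to 336 in CD44 Low, with SPARC and THY1 at 0. There 2 of 9 urothelial markers were higher and 4 lower, 1 of 10 epithelial markers was higher and 1 lower, and 1 of 2 fibroblast markers was lower. The part of these markers in the change of QKI was not tested.

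TRA2B was the other regulator that was called, and its J82 libraries lay higher in CD44 High and CD44v6. Its levels in J82 were 246, 259.6 and 255 CPM in parental cells, 258, 257 and 298 in CD44 Low, 325, 356 and 303 in CD44 High and 333, 302 and 318 in CD44v6. All CD44 High and CD44v6 libraries were above all parental and CD44 Low libraries. TRA2B rose by 0.37 on the log2 scale in CD44 High against parental cells (SE 0.09, edgeR adjusted p = 0.0397) and by 0.28 against CD44 Low (SE 0.09, 0.0471). In CD44v6 it was 0.33 above parental cells and 0.24 above CD44 Low, and neither passed (edgeR adjusted p = 0.0706 and 0.123). The former passed with DESeq2 (adjusted p = 0.00858), with a mean count of at least 50 and with all 24 libraries in one fit. It passed in no fit that left out 1 library (edgeR adjusted p from 0.0673 to 0.267). Both calls in CD44 High are close to the threshold. That against parental cells was lost without any one of the parental replicates, without CD44 High replicate 1 or 2 and without a filter (adjusted p up to 0.189). That against CD44 Low was lost without CD44 Low replicate 1 or 2, without CD44 High replicate 1 or 2, without a filter, with only the 6 libraries compared and with the replicate number as a block (up to 0.179).

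In RT-112 TRA2B was at 315, 313 and 327 CPM in parental cells, 350.4, 319 and 325 in CD44 Low, 373, 359 and 352 in CD44 High and 362, 366 and 372 in CD44v6. Here too the CD44 High and CD44v6 libraries were all above the parental and CD44 Low ones, but narrowly. The lowest CD44 High library was at 351.7 CPM and the highest CD44 Low library at 350.4. The share of all genes ordered this way in either line is not given here. Set against parental cells, CD44 High was at 0.18 and CD44v6 at 0.16, and neither passed (edgeR adjusted p = 0.283 and 0.258). The change in J82 minus that in RT-112 was 0.15 for CD44 High against CD44 Low (interval -0.06 to 0.37, edgeR adjusted p = 0.4), so a difference between the lines was not shown. Counts from 7SL and 7SK RNA, abundant small noncoding RNAs, were read as a share of each library. In RT-112 this share was lower in every CD44 High and CD44v6 library than in the others, and in J82 it overlapped between most groups. It was 5.67% to 6.77% in parental J82, 5.04% to 7.54% in CD44 Low, 4.24% to 5.67% in CD44 High and 4.16% to 6.12% in CD44v6. In RT-112 it was 6.88% to 7.76% in parental cells, 6.37% to 6.90% in CD44 Low, 5.46% to 6.35% in CD44 High and 5.02% to 6.15% in CD44v6. Its part in the levels of TRA2B or QKI was not tested.

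HNRNPM came close to a call in J82. It measured 523, 465 and 460.3 CPM in parental cells, 424, 364 and 494 in CD44 Low, 320.4, 315 and 398 in CD44 High and 339, 389 and 369 in CD44v6. Every CD44 High and CD44v6 library was below every parental library, while CD44 Low overlapped all other groups. Set against parental cells, the log2 fold change was -0.49 for CD44 High (SE 0.12, edgeR adjusted p = 0.0518) and -0.40 for CD44v6 (SE 0.12, 0.101). The first passed with upper-quartile scaling, the mean filter, DESeq2, the replicate block, only the 6 libraries compared and all 24 libraries in one fit, and without J82 CD44 High replicate 3. It did not pass with median-of-ratios scaling, without a filter (edgeR adjusted p = 0.0795) or in any other fit that left out 1 library (up to 0.233). CD44v6 against parental cells passed with DESeq2 (adjusted p = 0.0333) and in no other setting or left-out fit. In RT-112 HNRNPM was between 472 and 625 CPM over all groups, and CD44 High against parental cells gave -0.0033 (interval -0.22 to 0.21).

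The remaining regulators showed no call within a line. KHDRBS1 in J82 was at 228, 219 and 166 CPM in CD44 Low, 149, 177 and 144 in CD44 High and 154, 218 and 143 in CD44v6. Its groups overlapped, and CD44 High against CD44 Low gave -0.38 (interval -0.71 to -0.04, edgeR adjusted p = 0.12). SRSF1 in J82 CD44 Low lay below parental cells in all libraries (-0.21, edgeR adjusted p = 0.145). SRSF3 in RT-112 CD44 High lay above CD44 Low in all libraries (0.23, edgeR adjusted p = 0.104). HNRNPL ranged from 192 to 234 CPM over the J82 libraries and from 239.7 to 299.9 over those of RT-112, and its largest change within a line was -0.16 in J82 CD44v6 against CD44 High (edgeR adjusted p = 0.549).

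Between CD44v6 and CD44 High, whose CD44 levels overlapped in each line, none of the 10 was called by edgeR. Here 0 regulators in J82 and 1 in RT-112 had an unadjusted p under 0.05, and DESeq2 called 0 and 0. In J82 the log2 fold change ran from -0.18 (SRSF3) to 0.25 (QKI), and in RT-112 from -0.24 (QKI) to 0.11 (ESRP2). The intervals in RT-112 were -0.19 to 0.19 for ESRP1, -0.16 to 0.12 for TRA2B and -0.18 to 0.12 for SRSF1, which bound the change in each. Among all genes edgeR called 0 of 15951 in J82 and 0 of 15645 in RT-112 between these groups, with 1536 and 665 at an unadjusted p under 0.05, and DESeq2 called 74 and 2. Without RT-112 CD44 High replicate 2 edgeR called 431 genes in RT-112, and without J82 CD44v6 replicate 3 it called 2 in J82.

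**Figure D4:**
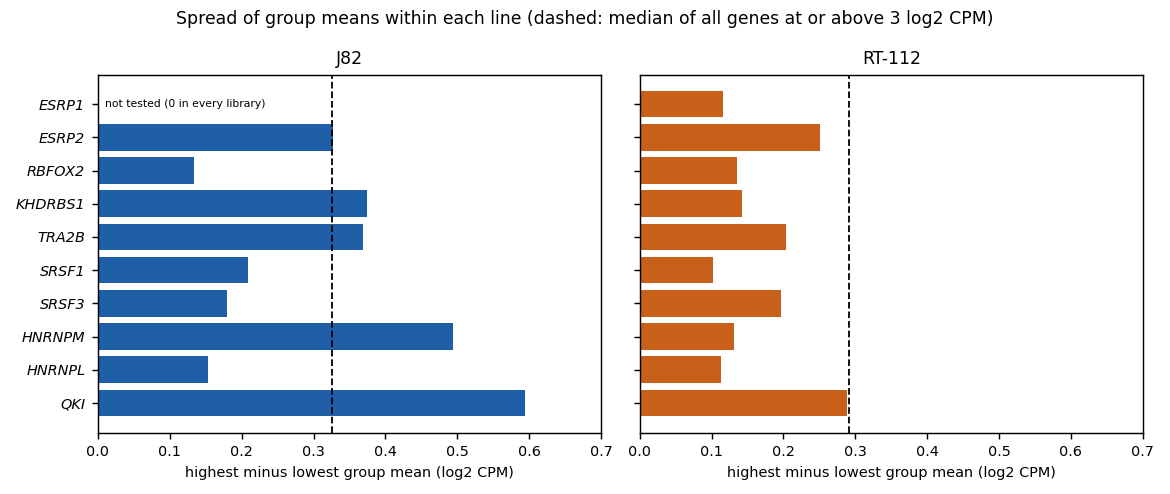
Highest minus lowest group mean of each regulator within a line, in log2 CPM, with a dashed line at the median of genes with an average of at least 3 log2 CPM. In J82 QKI (0.59), HNRNPM (0.49), KHDRBS1 and TRA2B (0.37 each) exceed the median of 0.33, ESRP2 (0.33) is level with it and 4 regulators lie below, and in RT-112 all 10 lie at or below the median of 0.29.

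The range over the 4 groups sums up how much each regulator varied. In J82 QKI spanned 0.59 on the log2 scale, from CD44 High to CD44 Low, HNRNPM 0.49, KHDRBS1 0.37, TRA2B 0.37, ESRP2 0.33, SRSF1 0.21, SRSF3 0.18, HNRNPL 0.15 and RBFOX2 0.13. ESRP2, at about 1 log2 CPM there, is below the level at which the median of all genes was taken. In RT-112 the widest was again QKI at 0.29, then ESRP2 at 0.25 and TRA2B at 0.20, and the narrowest was SRSF1 at 0.10. Since QKI had the widest range, the genes with the most similar pattern to it over the 12 libraries of each line were listed. In J82 these were TGFBR1, a receptor for TGF-beta, CAMSAP2, a microtubule-binding protein, and SCAF11, a splicing-related protein, with root mean square differences from QKI of 0.0543, 0.0685 and 0.077 in log2 CPM centred on each gene's mean. In RT-112 they were PAK1IP1, RPF2 and MRPL18, genes of ribosome production and of the mitochondrial ribosome, at 0.0486, 0.0635 and 0.0677. The median difference of all genes from QKI was 0.32 in J82 and 0.24 in RT-112. The highest RT-112 libraries of QKI were CD44 High replicate 1 and CD44v6 replicate 3. They were also the highest for SRSF3, on chromosome 6 like QKI, and for TRA2B and SRSF1, on chromosomes 3 and 17. The chromosomes of the genes nearest to QKI are not given here, and what they share with it was not tested.

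Other genes of the same machinery were read from 5 lists. Of 16 other proteins reported to act on CD44 splicing, 1 was higher (MBNL1) and 1 lower (U2AF2) when J82 CD44 High was set against CD44 Low, and in RT-112 4 of 15 tested were higher and 0 lower (PTBP1, SRRM1, SND1 and RBM38). Over all genes 8.83% were higher and 6.9% lower in J82 in that comparison, and 9.01% and 7.02% in RT-112. MBNL1, a regulator of developmental splicing, measured 322 ± 17.4 CPM in the CD44 High and 236 ± 6.84 in the CD44 Low cells of J82 (log2 fold change 0.45, edgeR adjusted p = 0.00207). SRRM1, a coactivator that works with SR proteins, was at 166 ± 18.5 CPM in RT-112 CD44 High and 90.3 ± 22.5 in CD44 Low (0.91, edgeR adjusted p = 0.00247). RBM38 was at 30.6 ± 6.20 and 20.04 ± 1.91 CPM (0.64, edgeR adjusted p = 0.00944). Between CD44v6 and parental cells edgeR called 0 of the 16 in J82 and 0 of 15 in RT-112.

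Of 17 other hnRNP genes, 0 were higher and 1 lower between the same J82 groups, and 3 were higher and 1 lower in RT-112. PTBP3, a paralog of the exon repressor PTBP1, fell in J82 from 187 ± 9.88 to 129.9 ± 5.38 CPM (-0.52, edgeR adjusted p = 0.00112). HNRNPH2 was lower in RT-112 CD44 High, at 62.98 ± 16.3 against 109.5 ± 10.7 CPM (-0.76, edgeR adjusted p = 0.00529); it has the close paralog HNRNPH1, between which reads could be split. Of the 16 paralogs of the regulators, 11 could be tested within each line, and 0 were called in J82 in this comparison, while SRSF2 and SRSF6 were higher in RT-112 CD44 High. Of 5 tested transcription factors of epithelial state, ZEB2 was lower in J82 CD44 High, at 134 ± 22.9 against 206 ± 29.03 CPM in CD44 Low (-0.62, edgeR adjusted p = 0.00936). Of 10 tested in RT-112, GRHL1 was lower in CD44 High, at 43.99 ± 2.75 against 64.8 ± 7.88 CPM (-0.52, edgeR adjusted p = 0.0118).

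Among the kinases that phosphorylate SR proteins, SRPK1 was the only gene of the 69 listed that passed in the same direction in J82 and RT-112 between these groups. The share of all genes that did so in both lines is not given here. Of 7 tested kinases 1 was higher and 0 lower in each line, against 8.83% of all genes higher in J82 and 9.01% in RT-112. The J82 levels of SRPK1 were 165 ± 9.42 CPM in CD44 High and 126 ± 8.44 in CD44 Low (log2 fold change 0.39, edgeR adjusted p = 0.00592). In RT-112 the levels were 293 ± 22.9 and 246 ± 17.8 CPM (0.28, edgeR adjusted p = 0.0481), a call close to the threshold. The libraries of the groups did not overlap in either line. SRPK1 moves SR proteins into the nucleus by phosphorylating them. In J82 CD44 Low cells SRPK1 was also lower when set against parental cells, at 169 ± 6.64 CPM (-0.42, edgeR adjusted p = 0.0101).

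In the parental cells of J82 against those of RT-112, 8 of the 16 other CD44 regulators were higher and 3 lower, and 4 of the 17 hnRNP genes were higher and 5 lower, against the 31% and 31% of all genes. Of 12 tested paralogs 1 was higher (MYEF2) and 6 were lower, 5 of them SR genes or TRA2A and the other HNRNPLL. Of 7 tested kinases 1 was higher (SRPK2) and 5 were lower (CLK2, CLK3, CLK4, DYRK1A and SRPK1).

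The differences between the lines were also tested for the 10 regulators in 3 comparisons over all 24 libraries. QKI was the 1 called between CD44 High and CD44 Low (10.7% of 17438 genes). HNRNPM was at -0.44 there (edgeR adjusted p = 0.087), and it was called without J82 CD44 Low replicate 2 or without J82 CD44 High replicate 3. edgeR called 0 of 10 in CD44v6 against CD44 Low (7.52% of genes) and 0 in CD44v6 against parental cells (0.138%), with 1 and 0 at an unadjusted p under 0.05 and 0 and 0 by DESeq2. The contrast for ESRP1 cannot be read, because its J82 counts are 0.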

How the data were processed

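Total RNA of J82 and RT-112 cells, taken with a column kit, was sequenced by a service as 24 libraries. The authors deposited raw read counts per gene symbol, and the submitters' processing notes name GRCh37, HISAT2 and StringTie without version or role. The annotation, read filters and use of strand in counting are not given in the sources used here. Library size for scaling was the total over the genes that passed the filter of each fit. Of the 35993 genes, 8616 were at 0 throughout.

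Counts were tested with edgeR 4.0.16 in R 4.3.3 (quasi-likelihood F-test, two-sided, filterByExpr by group, TMM scaling), with Benjamini-Hochberg adjustment over all genes tested and a threshold of 0.05. The 12 libraries of a line were fitted together for comparisons within it (15951 genes in J82, 15645 in RT-112), and all 24 for the comparisons and differences between lines (17438). ESRP1 did not pass the filter in J82. CPM used TMM factors over 24 libraries, SE came from the fold change and its F, and a count of 0 was given a limit of 3 counts. Exons, gene lengths and sequences came from GENCODE 29 (GRCh38), matched by symbol. Figures were drawn with matplotlib 3.10.9.

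Alternatives were DESeq2 1.42.0, other scalings and filters, the replicate number as a block, only the 6 libraries compared, all 24 in one fit, and leaving out each library. The members, lists, markers and rules were chosen with earlier results of these data known. Beyond the members, genes were named if called in the same direction in J82 and RT-112, or as the 2 largest increases and decreases per line in CD44 High against CD44 Low among called genes with an average of at least 3 log2 CPM. The transcription factors are given for the parental lines, and the 3 genes nearest to the member with the widest range are named. Genes named beside a small count, and NFATC3, were chosen after their values were seen. The scripts were tested on simulated data.

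The labels number the replicates 1 to 3 in each group but do not say that a number marks a shared culture or day. The departures of libraries from the mean of their group, compared between libraries that share a number, had all 3 correlations over 0.1 in 1 of 16 comparisons, J82 CD44v6 against CD44 High (lowest 0.109). With an earlier form of this check, on 1 gene set over 24 libraries, it was 0 of 16, and the later form was adopted after the counts of the blocked fits had been seen.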

Additional observations from a re-analysis of the deposited data

Results flagged for a closer look

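The change of QKI in CD44 High against CD44 Low differed between the lines by the test of the difference itself. The log2 fold change in J82 minus that in RT-112 was -0.90 (SE 0.17, edgeR adjusted p = 0.00173), from -0.60 in J82 and 0.33 in RT-112. All 3 J82 CD44 High libraries were below all 3 of CD44 Low, and all 3 RT-112 CD44 High libraries were above all 3 of CD44 Low. The markers called between the same groups are given with the result, and their part in it was not tested. No test for an outlying library is given here for groups of 3 libraries. Among the groups of this result, replicates 2 and 3 of RT-112 CD44 High differed most (chi-square over its degrees of freedom 45.5). In J82 CD44 Low this value reached 40.4, also for replicates 2 and 3.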

How the results depend on the processing

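No called member reversed its direction under any setting. Calls of members were kept in 206 of 216 comparisons of other settings and in 193 of 216 fits that left out 1 library, and 124 of 138 counts of called members under other settings were within 1.5 times the reported one. In J82 CD44 High against parental cells the count of 1 became 2 with upper-quartile scaling, a mean count of at least 50, DESeq2, the replicate block or all 24 libraries in one fit, 0 without a filter, and 3 with only the 6 libraries compared. For J82 CD44 High set against CD44 Low the count of 2 became 1 without a filter, with the replicate block or with only the 6 libraries compared. The count of 0 in J82 CD44v6 against parental cells became 1 with a mean count of at least 50 or all 24 libraries in one fit and 2 with DESeq2, and that of 0 for RT-112 CD44 High set against CD44 Low became 1 with DESeq2. The cause was not tested. With 1 library left out, counts ranged from 0 to 2 (J82 CD44 High against parental cells), 1 to 2 (against CD44 Low), 0 to 2 (J82 CD44v6 against CD44 Low; 2, KHDRBS1 and QKI, without J82 CD44v6 replicate 2) and 0 to 1 (RT-112 CD44 High against CD44 Low; 1 without its CD44 High replicate 2 or 3). They ranged from 5 to 7, 7 to 10, 7 to 8 and 7 to 8 between the lines (parental, CD44 Low, CD44 High, CD44v6), and from 1 to 2 for the difference between lines in CD44 High against CD44 Low. The remaining counts stayed at 0. The group concerned then has 2 libraries. The replicate block changed the call of TRA2B in J82 CD44 High set against CD44 Low (edgeR adjusted p = 0.0551), and HNRNPM gained a call against parental cells; no other count of members changed with it. In J82 CD44v6 against CD44 High, the 1 comparison where the numbers paired the libraries, 0 members were called with or without it. The median of all genes moved by at most 0.0748 (log2) under any setting. ESRP2 in J82, at 21 to 48 counts per library, is the member whose depth limits precision most.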
